A study of Mus musculus with 8 samples.

Results

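The cyclic nucleotide phosphodiesterase genes of the mature mouse primary motor cortex (M1) are described here in *Fezf2 shRNA*-treated and control tissue. Their members are *Pde1a*, *Pde1b*, *Pde1c*, *Pde2a*, *Pde4a*, *Pde4b*, *Pde4d*, *Pde7b*, *Pde8b* and *Pde9a*. They were listed by name with earlier results of these data known. Each gene took the counts of its transcript with the lowest Ensembl number. They make up 10 of the 38031 genes in the table, and all 10 were among the 9959 genes that passed the filter on low counts.

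Cyclic nucleotide phosphodiesterases hydrolyse the second messengers cAMP and cGMP and so end the signals that adenylyl and guanylyl cyclases start. The families differ in which nucleotide they prefer and in what regulates them. PDE1 enzymes are stimulated by calcium and calmodulin, PDE2 is stimulated by cGMP, PDE4, PDE7 and PDE8 enzymes prefer cAMP, and PDE9 prefers cGMP. In cortical neurons cAMP acts through protein kinase A, the exchange factors EPAC and cyclic nucleotide-gated channels on excitability, plasticity and gene expression.

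The libraries came from wild-type male Swiss Webster mice that were injected in M1 at P21 to P25 and dissected at P49 to P53. In all of them a lentivirus carried mCherry and a microRNA-embedded shRNA behind the *Synapsin I* promoter, which is active in neurons, and the shRNA was directed at *Fezf2* in 4 mice or was a *non-silencing shRNA* in the other 4. The M1 piece was cut by its mCherry signal through all layers, so it held untransduced cells as well, and each piece gave 1 total RNA library. The question was what changes in mature M1 when *Fezf2*, which encodes a transcription factor of layer 5 projection neurons, is reduced.

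The libraries had 54684016 to 58003814 counts on genes, and members had 665 to 11334 counts in a library. *Fezf2* itself had 688, 767, 735 and 702 normalized counts in the 4 control libraries and 621, 583, 568 and 592 in the *Fezf2 shRNA* libraries. Every treated library lay below every control, with a log2 fold change of -0.29 (SE 0.0760, and 0.0765 for the adjusted p given by the quasi-likelihood test of edgeR). Normalized counts are counts scaled by the effective library size. A gene is called here when its adjusted p is at most 0.05 and its log2 fold change is at least 0.2 in size. *Fezf2* was thus not called by edgeR, while DESeq2 without a prior called it (-0.28, adjusted p = 0.0256). Over all genes tested, 4.41% lay lower without overlap. *Fezf2* was counted over 3.86 kb, and with the offset for gene length described below it stood at -0.18 (adjusted p = 0.453 from edgeR). In bulk tissue, fewer cells of a type and less RNA per cell cannot be told apart.

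Only *Pde4d* and *Pde8b* of the 10 members were called higher, and none was called lower. Over all genes tested, 2.06% were called higher and 0.131% were called lower with *Fezf2 shRNA*. The groups did not overlap for the same 2 members, against 7.41% of all genes that lay higher and 4.41% that lay lower without overlap. Both genes are among the 4 members whose counted interval spans more than 100 kb, and among all genes of that span 10.3% were called higher and 29.8% lay higher without overlap. Over the 10 members the log2 fold change ran from -0.13 to 0.57, with a median of 0.03 beside -0.03 over all genes tested. Of the members, 7 were above 0 and 3 below it.

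**Figure D1:**
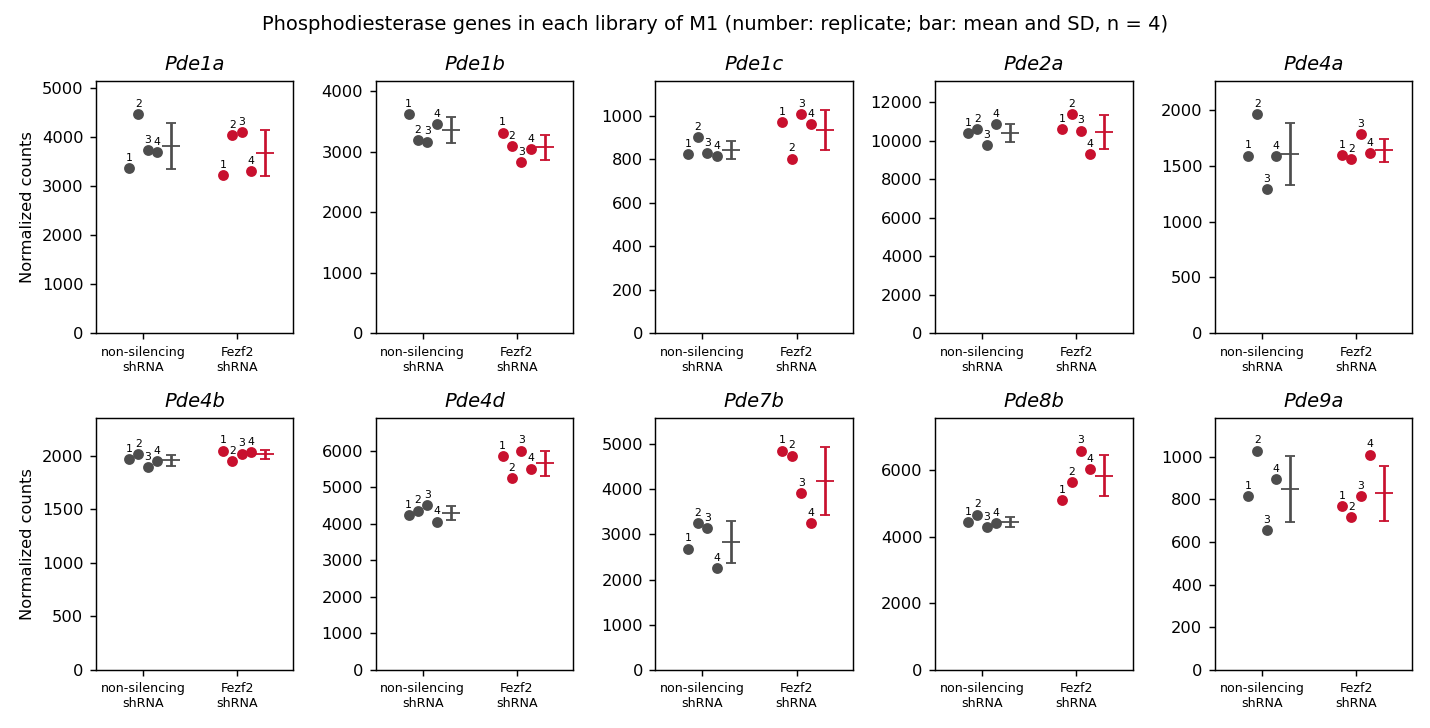
Normalized counts of the 10 phosphodiesterase genes in each library of M1, with the replicate number beside each point and the mean and SD of 4 libraries as bars. *Pde4d* and *Pde8b* are the genes whose treated libraries all sit above the controls, and *Pde7b* overlaps by 1 library on each side.

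*Pde4d* encodes a cAMP-specific phosphodiesterase with many isoforms that differ in their N-terminal regions. It was counted over ENSMUST00000074103, which lies on the plus strand of chromosome 13 from 109686156 to 109951474 (mm10) and covers 265 kb, of which 1.82% is exonic. The controls had 4235, 4359, 4518 and 4061 normalized counts, and the *Fezf2 shRNA* libraries had 5845, 5258, 6006 and 5512. The lowest treated library was above the highest control. The means were 4293 ± 194 and 5655 ± 335 (SD, n = 4 each), 31.7% higher with *Fezf2 shRNA* (log2 fold change 0.40, SE 0.0625, adjusted p = 0.0272 from edgeR). The size of the difference changed little when 1 library was left out (0.37 to 0.43), but the call was lost in 5 of these 8 fits. The adjusted p was then 0.0971 without control 1, 0.0736 without control 4, 0.0699 without *Fezf2 shRNA* replicate 1, 0.0732 without replicate 3 and 0.0586 without replicate 4.

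*Pde8b* encodes a high-affinity cAMP-specific phosphodiesterase that is insensitive to the common inhibitor IBMX. It was counted over ENSMUST00000022192, on the minus strand of chromosome 13 from 95026120 to 95222813, an interval of 197 kb. The controls were tightly grouped at 4433, 4669, 4293 and 4423 normalized counts, and the treated libraries had 5096, 5655, 6594 and 6034. The groups did not overlap, and the SD was 4.03 times larger in the treated group. The means were 4455 ± 156 and 5845 ± 631 (SD, n = 4 each), 31.2% higher with *Fezf2 shRNA* (log2 fold change 0.39, SE 0.0778, adjusted p = 0.0315 from edgeR). The estimate ran from 0.33 to 0.45 with 1 library left out. The call was lost in 6 of the 8 fits, with adjusted p of 0.102, 0.0664 and 0.0852 without control 1, 3 or 4 and 0.0509, 0.0860 and 0.0830 without *Fezf2 shRNA* replicate 1, 3 or 4.

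*Pde7b*, a cAMP-specific phosphodiesterase gene best known from the striatum, had the largest estimate but missed the threshold. Its transcript ENSMUST00000020165 spans 327 kb on the minus strand of chromosome 10, from 20398004 to 20725078. The controls had 2685, 3259.9, 3136 and 2253 normalized counts, and the treated libraries had 4859, 4747, 3920.2 and 3248. Control 2 was just above *Fezf2 shRNA* replicate 4, and all other treated libraries were above all controls. The means were 2833 ± 459 and 4194 ± 756 (SD, n = 4 each), and the log2 fold change was 0.57 (SE 0.143, adjusted p = 0.0696 from edgeR). Without control 2 the gene passed (0.64, adjusted p = 0.0463). DESeq2 without a prior, which called 6.61% of all genes higher, called *Pde7b* (0.57, adjusted p = 0.00229) along with *Pde4d* and *Pde8b* and no other member.

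The other cAMP-specific members gave estimates near 0 over their short intervals. *Pde4b*, which encodes a widely expressed brain PDE4 enzyme, was counted over the 18.1 kb of ENSMUST00000030251 on chromosome 4 (102587558 to 102605703). The controls had 1972, 2015, 1894 and 1955 normalized counts and the treated libraries 2049.6, 1953, 2022 and 2033. These overlapping values had the smallest spread relative to their mean of any member, and their SDs of 50.02 and 42.6 were near the 44.3 and 44.9 that counting error alone gives. The log2 fold change was 0.04 (SE 0.0543, adjusted p = 0.704). *Pde4a*, another PDE4 gene, was counted over the 14.9 kb of ENSMUST00000003395 on chromosome 9 (21196705 to 21211627). It had 1594, 1969, 1290.4 and 1587 normalized counts in the controls and 1598, 1563, 1789 and 1614 in the treated libraries. All treated values lay within the control range, and the log2 fold change was 0.03 (SE 0.112, adjusted p = 0.909).

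Among the calcium- and calmodulin-stimulated PDE1 genes no difference passed the test, and the 3 estimates differed in sign. *Pde1b* (ENSMUST00000023132, 27.0 kb, chromosome 15, 103503034 to 103530052) had 3628, 3198, 3171 and 3461 normalized counts in the controls. The treated libraries had 3318, 3098, 2827 and 3046, a log2 fold change of -0.13 (SE 0.0697, adjusted p = 0.311). The groups overlapped through *Fezf2 shRNA* replicate 1 and controls 2 and 3. *Pde1c* (ENSMUST00000044505, 293 kb, chromosome 6, 56069804 to 56362392) had 823, 903, 829 and 815 in the controls and 971, 804, 1010.2 and 962 in the treated libraries. *Fezf2 shRNA* replicate 2 lay below all controls and the other treated libraries above them (0.15, SE 0.0854, adjusted p = 0.330). *Pde1a* (ENSMUST00000090756, 49.4 kb, chromosome 2, 79859025 to 79908399) had 3374, 4474, 3739 and 3699.8 in the controls and 3225, 4048, 4098 and 3308 with *Fezf2 shRNA* (-0.06, SE 0.106, adjusted p = 0.780).

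The members that act on cGMP, or on both nucleotides under its control, were also not called. *Pde2a*, whose product is stimulated by cGMP, had the highest counts of the members. The controls had 10382, 10583, 9749 and 10848.5 normalized counts and the treated libraries 10607, 11390.5, 10525 and 9286, which overlapped fully (0.01, SE 0.0703, adjusted p = 0.961). Its interval on chromosome 7 (ENSMUST00000163751, 101421691 to 101512827, 91.1 kb) lies almost whole inside the annotated readthrough gene *Gm45837*, whose normalized counts were the same in every library, so the reads of these 2 genes cannot be told apart. *Pde9a*, the cGMP-specific member, had 814, 1029, 654 and 897 in the controls and 770.0, 717, 814 and 1010.3 in the treated libraries. These values overlapped over most of their range (ENSMUST00000047168, 90.1 kb, chromosome 17, 31386210 to 31476310; -0.04, SE 0.144, adjusted p = 0.908). The other annotated genes inside the members' intervals were the pseudogenes *Gm17230* and *Gm17229* in *Pde7b*, the antisense gene *Gm16243* in *Pde8b*, *Mir1904* in *Pde4d* and *Mir139* in *Pde2a*, none of which passed the filter.

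Per kb of counted interval, a scale that includes introns, the control levels fell into a high and a low set. *Pde1b* (125 normalized counts per kb), *Pde2a* (114), *Pde4b* (108), *Pde4a* (108) and *Pde1a* (77.4) were followed by *Pde8b* (22.6), *Pde4d* (16.2), *Pde9a* (9.42), *Pde7b* (8.66) and *Pde1c* (2.88). Neighbours in the upper set overlapped between control libraries, as did *Pde9a* and *Pde7b*, and all other neighbours were apart. This order depends on the transcript counted. Over the widest annotated interval the control level was 20.8 per kb for *Pde4b*, 53.4 for *Pde1a*, 69.9 for *Pde4a* and 13.6 for *Pde4d*.

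The fold changes of the members moved with the length of the counted interval, as they did over all genes. The Spearman correlation between log2 fold change and span was 0.67 over the 10 members and 0.60 over the 9959 genes, all from the same 8 libraries. The median log2 fold change over all genes was -0.12 for intervals under 10 kb, 0.15 for 100 to 300 kb and 0.29 over 300 kb. Within single libraries the slope of the log2 ratio to the mean library was -0.030 to -0.011 per doubling of span in the controls and 0.0073 to 0.030 with *Fezf2 shRNA*, so the trend separates the groups and cannot be told apart from the treatment.

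**Figure D2:**
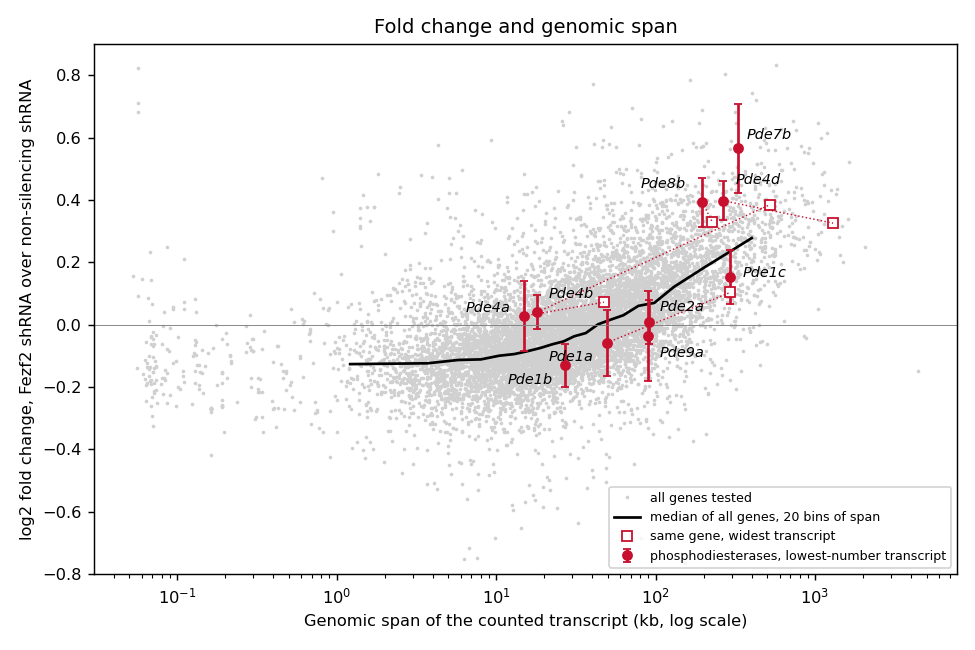
Log2 fold change (*Fezf2 shRNA* over *non-silencing shRNA*) against the genomic span of the counted transcript in kb on a log scale, for all genes tested (grey), their median in 20 bins (line) and the 10 members (red, with standard errors); genes beyond the vertical limits are not drawn. Open squares joined by dotted lines give the same gene over its widest transcript, where *Pde4b* stands at 0.38 and *Pde4d* at 0.33.

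When this trend was removed from each library with an offset for gene length, no member was called by edgeR. *Pde4d* then had a log2 fold change of 0.18 (adjusted p = 0.262), *Pde8b* 0.21 (0.339) and *Pde7b* 0.33 (0.399). *Pde1c*, which spans 293 kb, turned from 0.15 to -0.08 (adjusted p = 0.742). Over the whole table the same offset left 2 genes called instead of 218, with 1088 genes at an unadjusted p under 0.05.

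**Figure D3:**
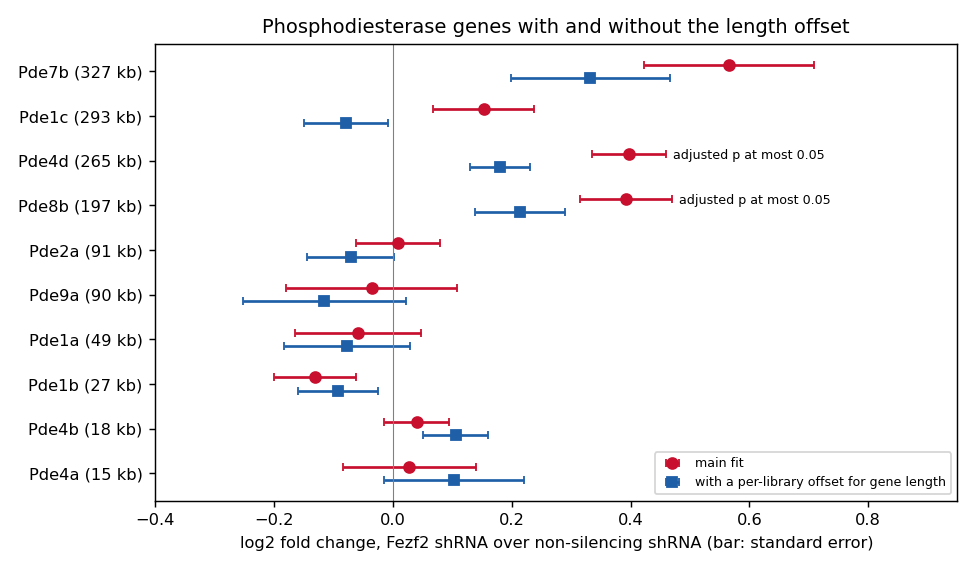
Log2 fold change with its standard error for the 10 members, ordered by span, as fitted (red circles) and with a per-library offset for gene length (blue squares). *Pde4d*, *Pde8b* and *Pde7b* stay above 0 at 0.18, 0.21 and 0.33 but are not called.

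The choice of interval mattered most for *Pde4b*. Its widest transcript, ENSMUST00000106911, spans 518 kb from 102087543 to 102605833 and had means of 10763 ± 878 and 14067 ± 2018 normalized counts (SD, n = 4 each) in control and *Fezf2 shRNA* libraries. The log2 fold change was 0.38 (SE 0.103, adjusted p = 0.0796), where the 18.1 kb interval at the 3′ end gave 0.04. *Pde4d* over its widest transcript of 1297 kb gave 0.33 (adjusted p = 0.0966) and was no longer called, while *Pde8b* over 226 kb gave 0.33 (adjusted p = 0.0469) and still was. *Pde1a* turned from -0.06 to 0.10 over 294 kb (adjusted p = 0.497).

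The annotated transcripts of a gene share reads, so they are not separate measurements, but they differ in which stretch of a gene they cover. Of 86 member transcripts that passed the filter, 25 were called and all of these were higher, against 4.99% of all 32588 transcripts tested. They belonged to *Pde8b* (11 of 14), *Pde4d* (7 of 19), *Pde4b* (4 of 12) and *Pde7b* (3 of 7). With a minimum mean of 100 counts in place of that filter, 20 of 93 were called, 11 in *Pde8b*, 7 in *Pde4d*, 2 in *Pde4b* and 0 in *Pde7b*. The share over all transcripts was not computed for this minimum. All called member transcripts span at least 81630 bp. The share called among all transcripts of such length was not computed, and no length offset was applied to transcripts. Within 1 gene the estimates ranged from 0.02 to 0.50 in *Pde8b*, 0.14 to 0.43 in *Pde4d*, 0.02 to 0.57 in *Pde4b* and 0.24 to 1.101 in *Pde7b*. In *Pde1a* they ran from -0.07 to 0.31 with none called among 10.

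To compare stretches that share no reads, transcripts with a common 3′ end were nested and the counts of each inner interval were subtracted from those of the next one outward. Some outer transcripts also end further 3′ than the inner one, and the reads of those last bases then count with the outer part. They were 924 bp for the called part of *Pde7b*, 825 bp in *Pde8b*, 2095 bp in *Pde4b* and 0 in *Pde4d*. The coordinates given for a part leave them out. The most in any part were 2996 bp, 22.6% of the fourth part of *Pde4d*, and the first part of *Pde4a* held 1621 bp (9.25%). Their share of the bases is not their share of the reads, which was not computed. This divided 6 of the 10 members into 19 parts with a mean of at least 100 counts. Of these parts 4 were called, all higher, 1 each in *Pde4d*, *Pde8b*, *Pde7b* and *Pde4b*. Over all 6209 parts tested, 3.3% were called higher and 0.113% lower. The 4 parts were among the 8 member parts longer than 100 kb, and of all parts of that length 19.4% were called higher. With an offset for part length none of the 6209 parts was called by edgeR.

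**Figure D4:**
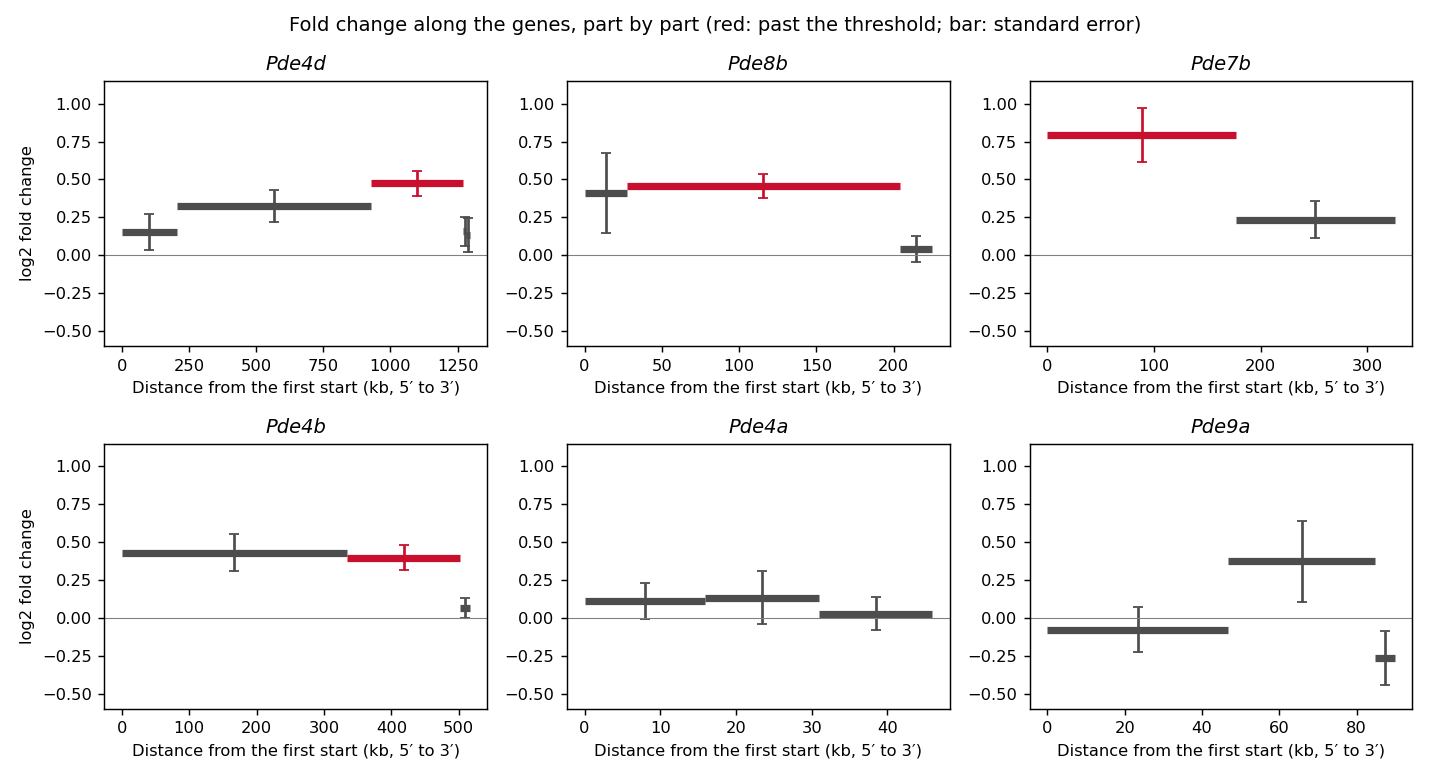
Log2 fold change of successive parts of 6 members against the distance in kb from the first annotated start, 5′ to 3′, with standard errors and with parts past the threshold in red. In all 6 genes the part at the 3′ end lies lowest and is also the shortest. It is at 0.04 in *Pde8b*, 0.24 in *Pde7b*, 0.06 in *Pde4b*, 0.14 in *Pde4d*, 0.03 in *Pde4a* and -0.27 in *Pde9a*. With an offset for part length (not drawn) it stays lowest in all of these but *Pde4d*. There the parts stand at -0.09, -0.05, 0.17, 0.20 and 0.18 from 5′ to 3′.

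In *Pde7b* the upstream part (20548329 to 20725078, 176.8 kb) had 1363, 1998, 1691 and 1139.9 normalized counts in the controls and 2975, 3199, 2702 and 1848 in the treated libraries. Replicate 4 of *Fezf2 shRNA* lay under control 2, and the log2 fold change was 0.79 (SE 0.177, adjusted p = 0.0312 from edgeR). The 3′ part of 149 kb (20398928 to 20548328) had 1322, 1261, 1445 and 1113 against 1884, 1548, 1218 and 1401 (0.24, SE 0.122, adjusted p = 0.337). Only the part upstream of the internal start that divides the gene was called.

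In *Pde8b* the middle part (95046067 to 95223066, 177.0 kb) had 3514, 3652, 3523 and 3607 normalized counts in the controls and 4239.5, 4707, 5549 and 5088 in the treated libraries. The groups were far apart, with a log2 fold change of 0.45 (SE 0.0796, adjusted p = 0.0191). The 3′ part of 20.7 kb (95025330 to 95046066) had 1828, 1928, 1558 and 1729 against 1660.1, 1742, 2010.4 and 1825, which overlapped (0.04, SE 0.0844, adjusted p = 0.856).

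In *Pde4b* the part from 102421518 to 102589842 (168 kb) had 2462, 2599, 2505 and 2385 normalized counts in the controls and 3075, 2889, 3746 and 3389 with *Fezf2 shRNA*. All treated libraries were above all controls (0.40, SE 0.0815, adjusted p = 0.0215). The part upstream of it gave 0.43 (SE 0.120, adjusted p = 0.0699) and the 3′ part of 13.6 kb gave 0.06 (SE 0.0674, adjusted p = 0.671). The called part also holds reads from the 2095 bp past the end of the 3′ part. ENSMUST00000097949 (102589723 to 102605861) encloses the 3′ part (102589843 to 102603441) and adds mostly bases past its end. Its means were 1991 in the controls and 2024 with *Fezf2 shRNA*, where the 3′ part had 1207 and 1261. A sizeable share of the called part's counts can thus lie past that end. The 0.40 is not the fold change of the stated stretch alone.

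In *Pde4d* the part called was the third of 5, from 109581405 to 109925062 (344 kb). It had 3711, 3609, 4042 and 3391 normalized counts in the controls and 5541, 4399, 5381 and 5182 in the treated libraries. The groups did not overlap (0.47, SE 0.0829, adjusted p = 0.0191). The 2 parts upstream of it gave 0.15 and 0.32, and the 2 parts downstream 0.16 and 0.14, none of them called. The 4 called parts were 0.805% to 3.13% exonic with the bases past the inner 3′ end included. The 3′ parts of the 6 members were 5.73% to 23.4% exonic. Low exonic content was not limited to called parts. The uncalled parts upstream of the called ones in *Pde4d* and *Pde4b* were 0.246% to 0.566% exonic. The first parts of *Pde9a* and *Pde8b*, also uncalled, were at 0.726% and 1.24%. Higher values were found in the second part of *Pde9a* (5.24%) and the fourth of *Pde4d* (11.4%). The first and second parts of *Pde4a* were at 12.2% and 19.8%.

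The calls on parts also depended on single libraries. No member part was called without control 1, control 4 or *Fezf2 shRNA* replicate 3. Over all genes these fits called 12 of 6196, 12 of 6190 and 5 of 6201 parts, in place of 212 of 6209. Without control 3 or *Fezf2 shRNA* replicate 1, 3 were called, in *Pde8b*, *Pde4d* and *Pde4b*. Without *Fezf2 shRNA* replicate 4, 3 were called as well, in *Pde8b*, *Pde4d* and *Pde7b*. Without control 2, 5 were called, 2 of them in *Pde4b* and 1 in each of the other 3 genes. Without *Fezf2 shRNA* replicate 2, 5 were called as well, 1 in *Pde8b* and 2 each in *Pde4d* and *Pde4b*, while the part of *Pde7b* was not (adjusted p = 0.0643). The part of *Pde7b* was thus called in 2 of these 8 fits. Over all genes, 302 of 6218 parts were called without control 2 and 163 of 6201 without control 3. Without *Fezf2 shRNA* replicate 1, 2 or 4 they were 124 of 6212, 205 of 6207 and 136 of 6198.

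Within each library the counts outside the 3′ part, which lie upstream of it apart from the bases past its end, were also divided by those in it, which needs no scaling between libraries. The log2 ratio was higher with *Fezf2 shRNA* in all 6 members, and the groups did not overlap in *Pde8b* alone, against 6.07% of 2505 genes with a ratio that lay higher without overlap. The share of the 2505 genes with a higher ratio was not computed. In each of the 6 members the 3′ part is the shortest part, and the ratio was not adjusted for length. In *Pde8b* it was 1.05, 0.97, 1.25 and 1.11 in the controls and 1.45, 1.48, 1.52 and 1.56 in the treated libraries, a difference of 0.41 (SE 0.0871, adjusted p = 0.147 from limma). The differences were 0.57 in *Pde7b* (adjusted p = 0.227), 0.35 in *Pde4b* (0.237), 0.29 in *Pde9a* (0.516), 0.20 in *Pde4d* (0.633) and 0.10 in *Pde4a* (0.692). The median over the 2505 genes was 0.06. No gene of the 2505 reached an adjusted p of 0.05 with limma, and 355 had an unadjusted p under 0.05.

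**Figure D5:**
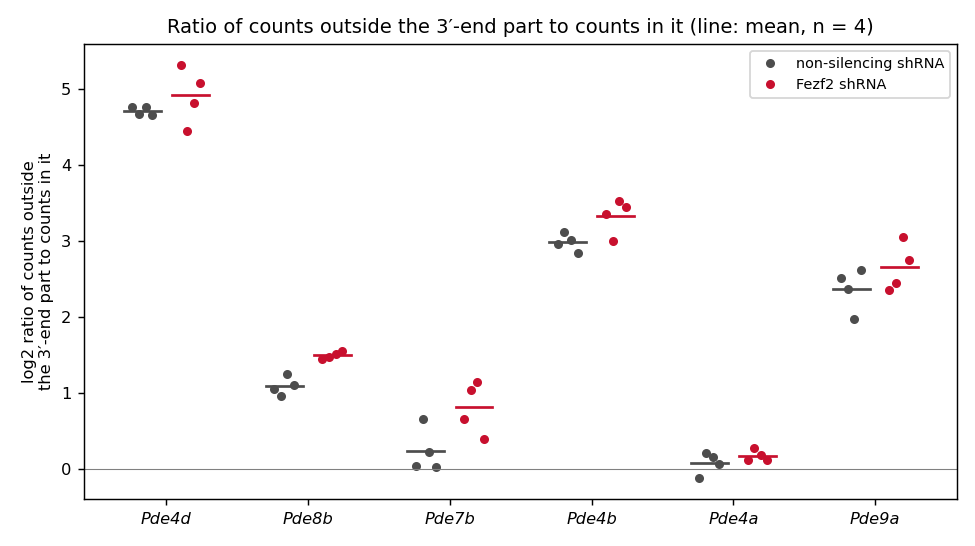
Log2 ratio of the counts outside the 3′-end part to the counts in it, for each library and 6 members, with group means as lines. Counts outside the part are those upstream of it and those of any bases past its end. The treated libraries of *Pde8b* sit at 1.45 to 1.56, above the controls at 0.97 to 1.25, and the groups overlap in the other 5 genes.

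For 4 starts that bound a called part, RefSeq (GRCm38.p6) gives a promoter, and the 250 bases before each are shown because these positions divide a called part from its neighbour. They are the internal start between both parts of *Pde7b*, the start that opens the called part of *Pde8b*, and the starts at either side of the called part of *Pde4b*. The RefSeq start lies 0, 16, 37 and 0 bases from the Ensembl start in this order. Capitals mark the half-site of the cAMP response element, TGACG or its reverse complement CGTCA.
Pde7b internal start, chr10:20548329-20548578, minus strand: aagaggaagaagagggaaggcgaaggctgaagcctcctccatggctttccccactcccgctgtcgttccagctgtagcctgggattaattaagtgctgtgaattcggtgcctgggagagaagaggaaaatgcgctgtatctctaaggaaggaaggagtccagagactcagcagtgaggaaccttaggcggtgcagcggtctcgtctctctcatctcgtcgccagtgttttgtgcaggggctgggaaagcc
Pde8b start of the called part, chr13:95223051-95223300, minus strand: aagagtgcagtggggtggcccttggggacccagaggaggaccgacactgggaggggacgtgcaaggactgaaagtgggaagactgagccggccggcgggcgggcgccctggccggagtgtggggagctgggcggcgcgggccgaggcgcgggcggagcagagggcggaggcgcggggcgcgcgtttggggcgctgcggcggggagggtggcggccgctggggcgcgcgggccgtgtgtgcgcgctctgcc
Pde4b upstream start, chr4:102421305-102421554, plus strand: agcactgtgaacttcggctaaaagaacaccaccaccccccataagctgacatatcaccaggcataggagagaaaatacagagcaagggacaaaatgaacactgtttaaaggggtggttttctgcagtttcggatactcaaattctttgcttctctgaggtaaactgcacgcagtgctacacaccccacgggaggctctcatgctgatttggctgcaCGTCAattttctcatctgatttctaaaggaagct
Pde4b downstream start, chr4:102589593-102589842, plus strand: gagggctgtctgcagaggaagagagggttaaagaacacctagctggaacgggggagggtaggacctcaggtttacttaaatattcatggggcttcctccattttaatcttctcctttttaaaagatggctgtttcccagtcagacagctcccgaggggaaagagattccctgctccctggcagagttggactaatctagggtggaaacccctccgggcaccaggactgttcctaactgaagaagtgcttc

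The 4 stretches differ in composition. That of *Pde8b* is 77.6% G and C with 32 CpG dinucleotides, and those of *Pde7b* and of the upstream and downstream starts of *Pde4b* are 55.2%, 46.0% and 50.8% G and C with 10, 5 and 3 CpG dinucleotides. RefSeq gave 29 promoters for 9 of the members, and *Pde9a* had none in the table. The full cAMP response element TGACGTCA, its own reverse complement, was in none of the 29 and in 1.55% of all 32851 promoters of this length. The half-site, which is part of the full element and was searched on both strands, was in 3 of the 29 and in 17.8% of all promoters. A match in this window is a description and not a measured site.

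The shRNA itself was compared with every annotated transcript of the members. Its 19-nt sense sequence is shown with the longest stretch found in a member in capitals, nt 6 to 16 from its 5′ end, which occurs in a *Pde2a* transcript.
Fezf2 shRNA: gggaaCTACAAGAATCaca

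All 19 nt occur in *Fezf2* transcripts. The longest match in sense was 7 to 11 nt among the members, 7 nt in *Pde4d* and 8 nt in *Pde8b* and *Pde7b*, and for the reverse complement it was 7 to 10 nt.

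The other phosphodiesterase genes were measured by the same fit. Of 11 listed, 5 passed the filter and none was called, with 2 above 0 and a median of -0.04. *Pde3b*, which encodes a phosphodiesterase inhibited by cGMP, had 1303, 1432, 1252 and 1144 normalized counts in the controls and 1649.98, 1444, 1580.4 and 1676 in the treated libraries. These groups did not overlap (0.31, SE 0.0819, adjusted p = 0.0792). *Pde3b* spans 124 kb, and of all genes over 100 kb 29.8% lay higher without overlap. With the length offset it stood at 0.19 (adjusted p = 0.353 from edgeR). *Pde10a*, a dual-specificity gene typical of striatal projection neurons, had 2282, 1991, 2105 and 3125 against 3032, 3261, 4017 and 3024 and overlapped through control 4 (0.49, SE 0.142, adjusted p = 0.101). Its interval spans 102 kb, and with the length offset it stood at 0.39 (adjusted p = 0.373 from edgeR). *Pde8a* (-0.23), *Pde7a* (-0.06) and *Pde5a* (-0.04) had adjusted p of 0.480, 0.685 and 0.744. The remaining 6, *Pde3a*, *Pde4c*, *Pde6a*, *Pde6b*, *Pde6c* and *Pde11a*, were under the filter in both groups.

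The rest of the cAMP and cGMP pathway held 2 called genes. In the list for cAMP synthesis 1 of 7 genes tested was called higher, the adenylyl cyclase gene *Adcy2*. It had 10839 ± 841 normalized counts in the controls and 13717 ± 532 with *Fezf2 shRNA* (0.34, SE 0.0667, adjusted p = 0.0315). Among the kinases 1 of 10 was called higher, *Prkg1*, which encodes cGMP-dependent protein kinase I. Its counts were 8134 ± 425 and 10705 ± 888 (0.40, SE 0.0711, adjusted p = 0.0272), with SD and n = 4 for each mean of both genes. Both span more than 100 kb, 379 kb for *Adcy2* and 1201 kb for *Prkg1*, and with the length offset they stood at 0.08 and -0.01. Among all genes tested 2.06% were called higher, and 10.3% of those over 100 kb. The call of *Adcy2* was lost in 6 of the 8 fits that left out 1 library (adjusted p of 0.1003, 0.0587 and 0.0862 without control 1, 3 or 4 and 0.0885, 0.0781 and 0.0722 without *Fezf2 shRNA* replicate 1, 3 or 4) and with a filter of more than 1 CPM (0.0560) or none (0.0618). That of *Prkg1* was lost in 5 of the 8, with 0.0971 and 0.0773 without control 1 or 4 and 0.0782, 0.0797 and 0.0586 without *Fezf2 shRNA* replicate 1, 3 or 4. None was called among 5 genes of cGMP synthesis, 3 other effectors, 16 A kinase anchors and partners, 3 calmodulin genes and 6 CREB factors. The gene with the smallest unadjusted p in each of these lists was *Gucy1a2*, a soluble guanylyl cyclase subunit gene (0.25, adjusted p = 0.0785), *Hcn2*, a cyclic nucleotide-gated channel gene (-0.19, 0.213), *Akap8* (-0.28, 0.272), *Calm3* (-0.13, 0.354) and the CREB-binding protein gene *Crebbp* (0.15, 0.215). The medians over the genes tested were -0.01 for cAMP synthesis, -0.06 for cGMP synthesis, 0.02 for the kinases, -0.01 for the other effectors, -0.02 for the anchors, -0.12 for calmodulin and 0.15 for the CREB factors.

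Markers of the cell types in M1 were measured beside these results, and no gene of the 7 lists was called. The 8 neuronal markers had a median log2 fold change of -0.02, with summed normalized counts of 203057 to 227296 in the controls and 208771 to 222075 in the treated libraries. Of these 8, *Rbfox3* (0.28, adjusted p = 0.0976) and *Syt1* (0.19, adjusted p = 0.199) lay higher without overlap, and the other 6 overlapped. Both were named after their values were seen, and their counted intervals are 418 and 513 kb. Among all genes 7.41% lay higher without overlap, and 29.8% of those over 100 kb. Striatal projection neuron markers, which bear on *Pde1b*, *Pde7b* and *Pde10a*, summed to 3789 to 4588 and 3225 to 4461, and 4 of 8 passed the filter (median -0.11). *Drd1*, *Drd2*, *Adora2a* and *Tac1* did not, with means of 319, 25.6, 43.0 and 182 in the controls and 262, 26.0, 31.2 and 141 with *Fezf2 shRNA*. All 7 oligodendrocyte markers tested lay below 0 (median -0.52), with sums of 62497 to 113279 in the controls and 46492 to 76347. Oligodendrocyte precursor markers had a median of -0.20 (5246 to 6527 and 4753 to 5518) and astrocyte markers of -0.09 (65684 to 74808 and 66225 to 71735). The 7 microglial markers tested had a median of 0.08. Of 7 endothelial and pericyte markers 3 passed the filter, with a median of -0.05. The sums of all 7 did not overlap between the controls (5014 to 6494) and the treated libraries (4639 to 4989). *Rgs5* had the largest counts in these sums, with means of 2964 in the controls and 2378 with *Fezf2 shRNA*. The precursor marker *Olig1* (-0.34, adjusted p = 0.0557 from edgeR) lay lower without overlap. So did *Rgs5* of the endothelial and pericyte list (-0.32, adjusted p = 0.0552 from edgeR). These were also named after their values were seen, and 4.41% of all genes lay lower without overlap. No marker was at 0 in all libraries. The part of these shifts in the results on the members was not tested.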

How the data were processed

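Total RNA libraries of M1 were sequenced, and the labels put 4 in each group. The authors aligned the reads to mm10 with TopHat2 2.1.1 and counted them per Ensembl transcript with bedtools 2.26.0, and the deposited values are raw counts. Of 274 pairs of member transcripts in which one interval encloses the other, 271 had no fewer reads in the enclosing one in any library, so a count covers introns as well. The authors' DESeq2 comparisons (base means, fold changes and p-values) were not used. Of 94647 transcripts, 91320 were found in GENCODE M21, and each gene took the one with the lowest Ensembl number.

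Genes were kept at over 8 CPM in 4 or more libraries and tested with edgeR 4.0.16 in R 4.3.3 (TMM, quasi-likelihood test, Benjamini-Hochberg adjustment, no covariate). Parts of genes shared a 3′ end within 5000 bp and differed by at least 10000 bp. Ratios of parts were compared with limma 3.58.1 after adding 1 to both counts. The length offset was a per-library loess (span 0.3) of the log2 ratio to the mean library. Alternatives were other scalings and filters, DESeq2 1.42.0, a replicate block, the offset, the widest transcript and leaving out each library. The tests were checked on simulated data.

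Named were all members, *Fezf2*, called genes of the pathway lists (or the gene of smallest p), other phosphodiesterase genes past the filter and genes past it that share reads with a member. Genes under the filter were named after their values were seen. One marker gene, and the summed level of its list, is not reported here. The members and lists were chosen with earlier results of these data known. Sources give 4 mice a group, and each library was taken as 1 mouse.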

Additional observations from a re-analysis of the deposited data

Results flagged for a closer look

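In 7 of 86 groups of 4 libraries examined (named genes and member parts), 1 library lay far from the other 3 by Dixon's test, which chance alone gives in about 1 of 20 groups. *Pde1c* had 903 normalized counts in control 2, where the other controls had 815 to 829. In the first part of *Pde4d*, *Fezf2 shRNA* replicate 2 had 1655 where the others had 2321 to 2435, and control 4 had 1676 where the others had 2035 to 2103. In the 3′ part of *Pde4b*, *Fezf2 shRNA* replicate 4 had 1302 where the others had 1246 to 1249. In the second part of *Pde4a*, control 2 had 598 where the others had 342 to 355. In the first part of *Pde9a*, *Fezf2 shRNA* replicate 4 had 697 where the others had 518 to 530.5. *Crebbp* had 7337 in *Fezf2 shRNA* replicate 2, where the others had 7768 to 7818.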

How the results depend on the processing

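In place of 218 of 9959 genes tested, 111 of 16481 were called with a filter of more than 1 CPM and 85 of 29623 with none. DESeq2 called 734 with its prior and 752 without. The length offset left 2 with or without the replicate block, and 1 on the widest transcripts. Leaving out 1 library gave 0 to 401 (0 of 9871 without control 1, with 1563 at an unadjusted p under 0.05). Of the members, 1 was called with library totals, with the filter of more than 1 CPM, with no filter and with the widest transcript, 0 with the length offset (alone, with the block, or with the widest transcript) and 0 to 3 with 1 library left out. Of their parts, 0 were called with an offset for part length, and 0 to 5 with 1 library left out. Over all genes, leaving out 1 library gave 5 to 302 called parts. The ranges with 1 library left out that cross 0 were -0.11 to 0.026 for *Pde1a*, -0.035 to 0.061 for *Pde2a* and for *Gm45837*, -0.056 to 0.14 for *Pde4a* and -0.15 to 0.070 for *Pde9a*.

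The sign turned in the following cases, none of them called in that setting. With library totals, *Pde2a* and *Gm45837* had -0.020. With the length offset *Pde1c* had -0.078, *Pde2a* -0.071, *Gm45837* -0.084, *Gucy1a2* -0.0029 and *Prkg1* -0.0063, and with the block added -0.080, -0.075, -0.088, -0.0042 and -0.0039 in this order. With the widest transcript, *Pde1a* had 0.10 and *Pde7a* 0.032. With the widest transcript and the length offset, *Pde4d* had -0.069, *Pde1c* -0.066, *Pde2a* -0.063 and *Gm45837* -0.075. The cause was not tested. The settings that combine the widest transcript with the offset, and all those on parts, were chosen after seeing the data.

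Labels give both groups the replicate numbers 1 to 4. Deviations of libraries with the same number correlated at 0.30, 0.088, -0.13 and 0.17, so the numbers were not taken as pairs, and libraries correlated best with their own number for 1 and 4 but not for 2 and 3. With the replicate block 89 genes were called, 2 of them members (*Pde4d*, adjusted p = 0.0439, and *Pde7b*, 0.0444; *Pde8b*, 0.0625), and the same 4 member parts. Over all genes the block gave 291 called parts of 6209.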
